A study of Mus musculus with 23 samples.

Results

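The genes described here mark the early oligodendrocyte lineage in mouse cortex. They fall into precursor genes (Pdgfra, Cspg4, Vcan and Tnr), the lineage factors Olig1 and Olig2, and genes of premyelinating cells (Gpr17, Enpp6 and Bcas1). They were chosen by gene symbol. Of the 10 symbols, 9 had a row among the 39017 genes of the count table, and Lhfpl3 is not analysed here. Total RNA from pulverised cortex was sequenced after depletion of ribosomal RNA, in 22 mice. At 10 weeks of age there were 3 G34R, 3 G34V and 2 G34W mice, with 6 wild-type (WT) mice. At postnatal day 7 there were 4 G34R and 4 WT mice. The substitutions replace glycine 34 of the histone variant H3.3 by arginine, valine or tryptophan. Every mutant was heterozygous, labelled Hf3fa+/G34R, Hf3fa+/G34V or Hf3fa+/G34W at 10 weeks (so spelled) and H3f3a G34R/+ at day 7, and the WT labels were Hf3fa+/+ and H3f3a +/+. At 10 weeks every animal was labelled male but for G34W replicate 2, a female, and each day-7 genotype had 2 males and 2 females. The strain was not given in the sources used here, nor was the way the alleles were made.

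Oligodendrocyte precursors divide in response to platelet-derived growth factor through the receptor encoded by Pdgfra and carry the NG2 proteoglycan encoded by Cspg4. Cells that leave the cycle pass through a premyelinating stage, marked by the receptor gene Gpr17, the phosphodiesterase gene Enpp6 and Bcas1, before they make myelin. Olig1 and Olig2 encode basic helix-loop-helix transcription factors that are active throughout the lineage, and Olig2 is needed to found it. In the rodent cortex precursors are abundant in the first postnatal weeks, most myelin is laid down after them, and a population of precursors persists in the adult.

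Total counts were 32.3 to 90.1 M (M, mega) in the libraries at 10 weeks and 28.4 to 53.5 M at day 7. All 9 genes passed the filter on low counts, and the lowest count of any of them in any animal was 126, for Enpp6 in G34W replicate 1. Levels are given as CPM, counts scaled to the library total on 1 TMM scale over all animals. H3f3a, the edited gene, lay between 38.4 and 45.8 CPM in the mutants at 10 weeks, against 41.5 to 49.6 CPM in WT. At day 7 it lay between 59.3 and 63.3 CPM in G34R, against 69.8 to 75.4 CPM in WT. These counts do not show the substituted codon. Markers of neurons and astrocytes were detected in every group, with none of the 7 genes of either list at 0 over all animals of a group. At 10 weeks the libraries were split by the share of counts from mitochondrial protein-coding genes, at its widest gap, after seeing the data. The shares were 0.885% to 1.028% in the first set and 1.116% to 1.356% in the second. That gap was 0.088 percentage points and the next widest 0.066, and the labels name no such sets. All 3 G34R libraries lay in the first, here called the low set, and all G34V and G34W libraries in the high set, with WT libraries in both. Replicates are separate animals. In RNA from whole tissue, fewer cells of a type and less RNA per cell cannot be told apart.

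On GRCm38 (GENCODE M21), all are protein-coding genes. Pdgfra lies on chromosome 5 (75152292 to 75198215, plus strand), Cspg4 on chromosome 9 (56865033 to 56899870, plus strand), Vcan on chromosome 13 (89655312 to 89742509, minus strand) and Tnr on chromosome 1 (159523769 to 159931729, plus strand). Olig2 (91225457 to 91228677) and Olig1 (91269772 to 91271933) are neighbours on the plus strand of chromosome 16. Enpp6 lies on chromosome 8 (46986887 to 47096762, plus strand), Bcas1 on chromosome 2 (170346991 to 170427845, minus strand) and Gpr17 on the minus strand of chromosome 18.

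Levels were compared between genes per kilobase of exonic length. At 10 weeks, Bcas1 led with 29.2 ± 3.11 CPM per kb (SD, n = 6 WT animals), followed by Olig1 with 24.1 ± 1.99 CPM per kb and Gpr17 with 8.59 ± 0.896 CPM per kb. Tnr had 6.93 ± 0.464 CPM per kb, Pdgfra 6.68 ± 0.458 and Olig2 4.79 ± 0.630. The lowest were Cspg4 with 1.71 ± 0.170 CPM per kb, Enpp6 with 1.34 ± 0.250 and Vcan with 1.28 ± 0.147. The SD bands of Tnr and Pdgfra overlapped, as did those of Cspg4 and Enpp6 and those of Enpp6 and Vcan. At day 7 the order was different, with Olig1 first (28.0 ± 3.29 CPM per kb, SD, n = 4 WT animals), then Gpr17 (22.5 ± 2.34), Pdgfra (14.3 ± 0.493) and Vcan (10.9 ± 1.37). Below them were Bcas1 (8.09 ± 1.37 CPM per kb), Olig2 (7.66 ± 1.21), Tnr (6.99 ± 0.891), Cspg4 (3.99 ± 0.153) and Enpp6 (1.02 ± 0.192). There the bands of Olig1 and Gpr17 overlapped, as did those of Bcas1, Olig2 and Tnr with their neighbours among these 3.

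**Figure D1:**
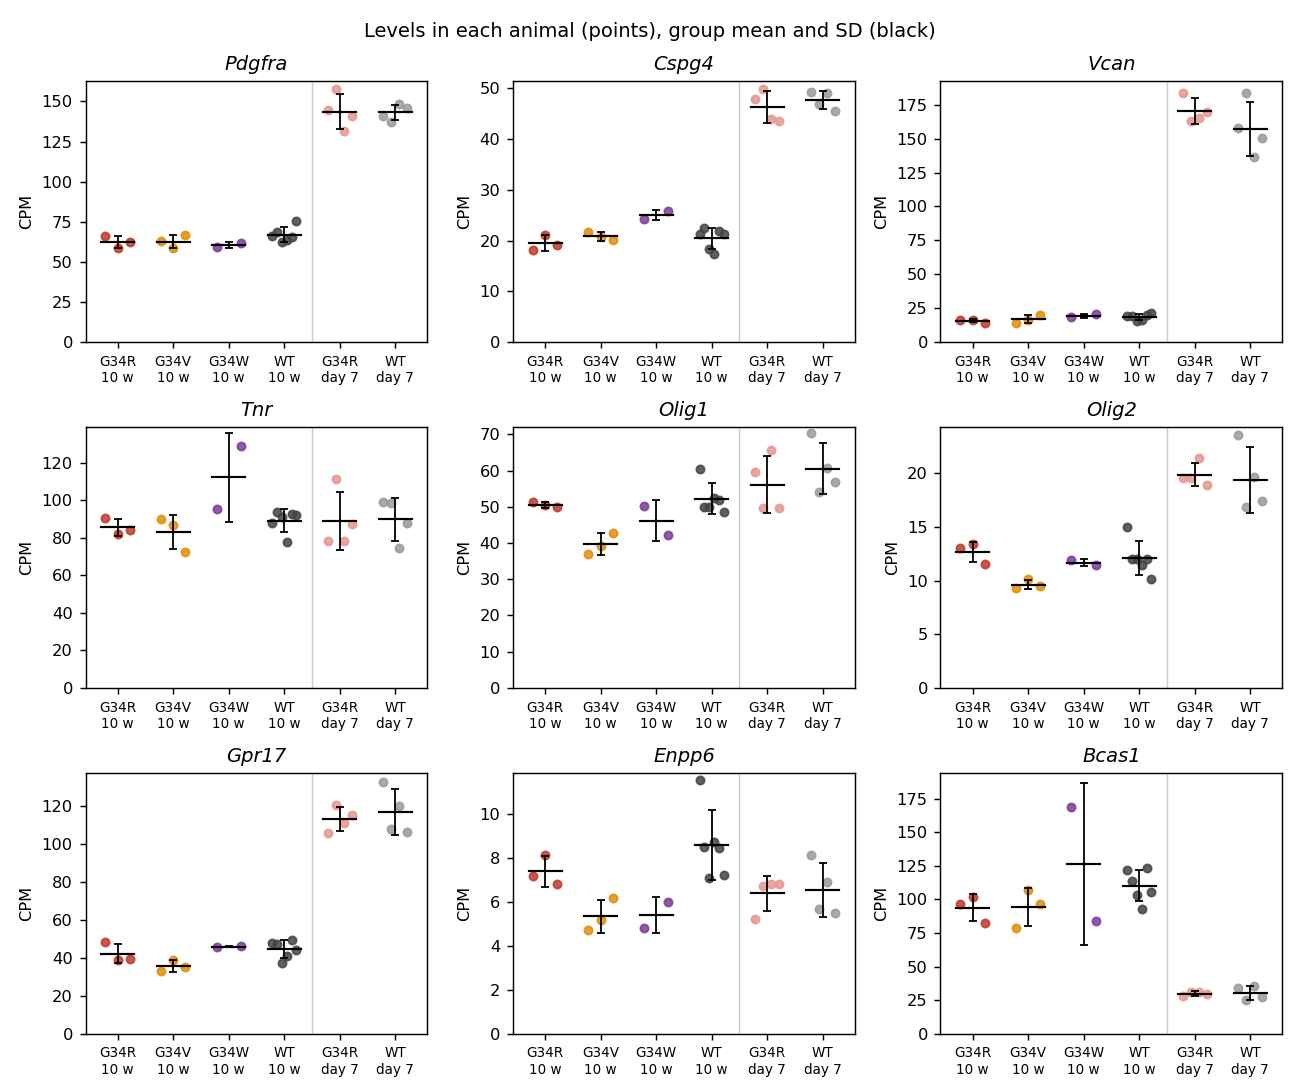
Level of each gene in CPM (y axis, from 0) in every animal, by genotype and age (x axis; w, weeks); bars give the group mean and SD. Vcan lies between 14.2 and 21.4 CPM in all 14 animals at 10 weeks and between 137 and 184 CPM in all 8 at day 7, while Bcas1 runs the other way.

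The age comparison set 10-week cortex against day-7 cortex, first within WT. Of the 9 genes 2 were higher and 6 lower at 10 weeks at an adjusted p under 0.05 (quasi-likelihood test of edgeR, with p adjusted by Benjamini-Hochberg over 22417 genes). Of all genes 67.7% passed the same threshold, 33.3% higher and 34.4% lower. The 8 of 9 that passed is thus not far above the background. Age goes together with the submission of the libraries and partly with sex, so these cannot be told apart.

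Among the precursor genes 3 fell with age, where 34.4% of all genes were lower at 10 weeks in WT. Vcan, which encodes the chondroitin sulphate proteoglycan versican, had 15.9, 19.1 and 21.4 CPM (lowest, median and highest) in WT at 10 weeks, against 158, 184, 137 and 150.2 CPM in the 4 WT animals at day 7. It was 8.50-fold lower at 10 weeks, a log2 change of -3.09 (SE 0.0956, edgeR adjusted p = 2.52e-17), the largest change among the 9 genes. Pdgfra had 62.7, 66.0 and 75.3 CPM (lowest, median and highest) at 10 weeks, against 141, 137, 148 and 146 CPM at day 7. The ranges lay far apart, with a log2 change of -1.10 (SE 0.0549, edgeR adjusted p = 9.70e-15). Cspg4 had 17.4, 21.2 and 22.5 CPM at 10 weeks, against 49.3, 46.8, 49.0 and 45.5 CPM at day 7, a log2 change of -1.22 (SE 0.0663, edgeR adjusted p = 4.30e-14). Tnr, which encodes the extracellular matrix protein tenascin-R and is also made by neurons, had 77.7, 91.7 and 93.6 CPM at 10 weeks, against 98.9, 98.6, 74.6 and 87.9 CPM at day 7. Its log2 fold change was -0.01 with a 95% interval of -0.23 to 0.20 (edgeR adjusted p = 0.916).

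The promoters of 3 genes that differ in this course are shown, Vcan with the largest fall, Pdgfra with a smaller fall, and Enpp6, which did not fall. Each is the 250 bases before the RefSeq transcription start (RefSeq, GRCm38.p6), with every CG dinucleotide, the usual site of DNA methylation, in capitals. The Vcan promoter is on the minus strand at chr13:89742513-89742762, that of Pdgfra on the plus strand at chr5:75152001-75152250, and that of Enpp6 on the plus strand at chr8:46986637-46986886.
Vcan: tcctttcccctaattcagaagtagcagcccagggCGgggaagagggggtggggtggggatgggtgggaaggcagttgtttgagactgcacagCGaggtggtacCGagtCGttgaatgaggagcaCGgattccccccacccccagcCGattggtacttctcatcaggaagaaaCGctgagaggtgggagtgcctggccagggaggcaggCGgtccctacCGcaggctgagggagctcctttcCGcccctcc
Pdgfra: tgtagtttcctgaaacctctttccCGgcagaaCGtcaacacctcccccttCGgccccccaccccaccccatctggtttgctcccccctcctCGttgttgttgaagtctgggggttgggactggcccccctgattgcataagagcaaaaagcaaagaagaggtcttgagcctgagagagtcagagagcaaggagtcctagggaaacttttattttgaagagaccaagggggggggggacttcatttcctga
Enpp6: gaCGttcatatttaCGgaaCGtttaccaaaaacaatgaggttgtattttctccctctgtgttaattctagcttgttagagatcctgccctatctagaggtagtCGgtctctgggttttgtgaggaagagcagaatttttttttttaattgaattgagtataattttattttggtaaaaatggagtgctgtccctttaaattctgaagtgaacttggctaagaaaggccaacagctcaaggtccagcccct
Vcan has 10 CG dinucleotides and 62.4% G+C, Pdgfra 4 and 54.4%, and Enpp6 4 and 38.4%, against medians of 6 and 52.0% over 27025 promoters of this length. At least 10 CG dinucleotides were found in 38.2% of these promoters and at least 4 in 61.9%. The E-box hexamer CAGCTG, a palindrome that reads the same on both strands, is in none of the 3 and in 12.8% of all promoters. DNA methylation was not analysed here.

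Both lineage factors were lower at 10 weeks. Olig2 had 10.1, 12.01 and 15.02 CPM (lowest, median and highest) in WT at 10 weeks, against 23.6, 16.9, 19.7 and 17.4 CPM at day 7. Its ranges did not overlap, with a log2 change of -0.67 (SE 0.0923, edgeR adjusted p = 7.02e-07). Olig1 had 48.5, 50.9 and 60.4 CPM at 10 weeks, against 70.4, 54.2, 60.8 and 56.7 CPM at day 7, and these ranges overlapped. Its log2 change of -0.21 (SE 0.0829) passed with an edgeR adjusted p of 0.0280, but not when any 1 of WT replicates 2, 3 and 6 at 10 weeks or 1 and 3 at day 7 was left out (edgeR adjusted p from 0.0515 to 0.164).

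The premyelinating genes went in different directions. Gpr17, which encodes a G protein-coupled receptor that holds cells back from myelination, had 37.4, 46.0 and 49.6 CPM in WT at 10 weeks, against 133, 108, 120.0 and 107 CPM at day 7, a log2 change of -1.39 (SE 0.0777, edgeR adjusted p = 1.66e-13). Bcas1, which newly formed and myelinating oligodendrocytes both express, had 93.2, 109.9 and 124 CPM at 10 weeks, against 34.1, 25.1, 35.7 and 27.2 CPM at day 7. It was 3.62-fold higher at 10 weeks, a log2 change of 1.85 (SE 0.165, edgeR adjusted p = 1.15e-08). Enpp6, which encodes a choline phosphodiesterase, had 7.08, 8.45 and 11.5 CPM at 10 weeks, against 8.13, 5.67, 6.91 and 5.48 CPM at day 7, and its ranges overlapped. Its log2 change of 0.40 (SE 0.136, edgeR adjusted p = 0.0128) did not pass without WT replicate 2 or 4 of day 7 (0.33 and 0.32, edgeR adjusted p = 0.0543 and 0.0619) or in males alone (0.32, edgeR adjusted p = 0.132).

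In G34R animals 1 of the 9 genes was higher and 5 were lower at 10 weeks than at day 7, where 63.8% of all genes passed, 31.5% higher and 32.3% lower. Vcan had 16.6, 16.7 and 14.5 CPM in G34R at 10 weeks, against 184, 163, 165 and 169.6 CPM in G34R at day 7, a log2 change of -3.42 (SE 0.127, edgeR adjusted p = 1.15e-15). Bcas1 had 96.6, 102 and 82.5 CPM at 10 weeks, against 28.0, 31.2, 31.3 and 29.4 CPM at day 7, a log2 change of 1.65 (SE 0.183, edgeR adjusted p = 3.02e-07). Pdgfra, Cspg4, Olig2 and Gpr17 were lower by -1.20, -1.25, -0.65 and -1.42 on the log2 scale. Tnr, Olig1 and Enpp6 did not pass, with log2 fold changes of -0.05, -0.15 and 0.20. The age change was then compared between genotypes directly. In none of the 9 genes did the difference pass, against 1.16% of all genes (edgeR, with 0 of the 9 by DESeq2 and by limma-voom). At an unadjusted edgeR p under 0.05 there was 1 of the 9, with no share of all genes taken at that threshold. The difference was largest for Vcan, whose G34R effect was lower by -0.33 at 10 weeks than at day 7 (95% interval -0.64 to -0.02, edgeR adjusted p = 0.409).

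**Figure D2:**
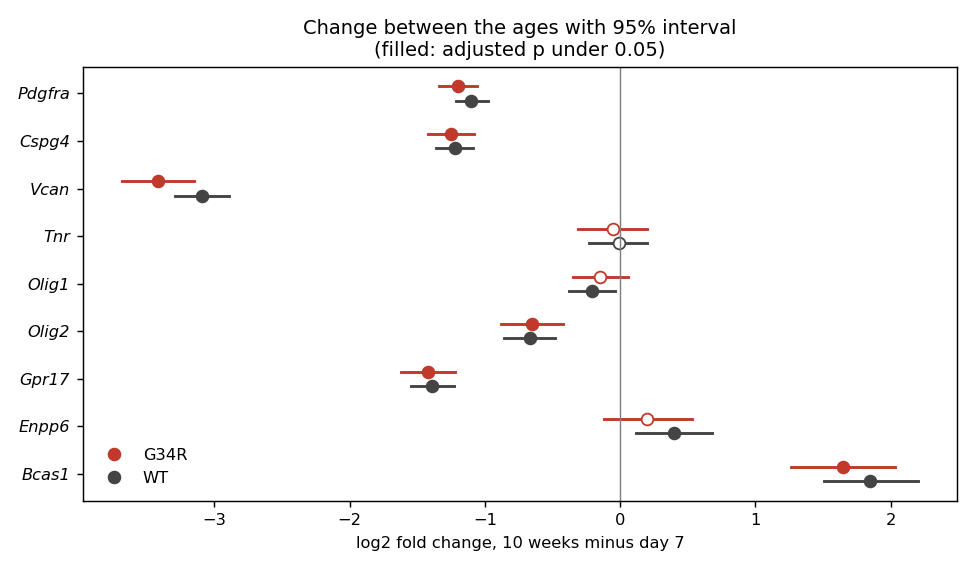
Log2 fold change between the ages (x axis, 10 weeks minus day 7) with its 95% interval for each gene (y axis), in G34R and in WT; filled points passed an edgeR adjusted p of 0.05. Vcan lies at -3.42 in G34R and -3.09 in WT, Tnr close to 0 in both, and Bcas1 at 1.65 and 1.85.

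Other genes of the lineage were taken from lists, for which the background between the ages in WT is again 67.7% of all genes. Of 18 other precursor genes 4 were higher and 13 lower at 10 weeks in WT (median log2 fold change -0.56, against -0.67 for the 9 genes and -0.01 for all genes). Emid1 fell by 3.27 on the log2 scale, Cacng4, an auxiliary subunit of glutamate receptors, by 2.35, and Sox5, a transcription factor gene, by 1.25. Of 16 other genes of newly formed oligodendrocytes 4 were higher and 10 lower (median -0.36), with Rras2, which encodes a small GTPase, at -1.99 and Fyn, which encodes a kinase of the oligodendrocyte lineage and of neurons, at -0.88. All 20 genes of mature myelin were higher (median 4.46). Among them Ermn, which encodes a cytoskeletal protein of myelinating cells, had 64.3 ± 8.83 CPM in WT at 10 weeks (SD, n = 6) and 0.658 ± 0.123 CPM at day 7 (n = 4), a log2 change of 6.61 (SE 0.182, edgeR adjusted p = 8.55e-18). The summed level of the 20 genes was 5125 to 6681 CPM in WT at 10 weeks, against 267 to 340.4 CPM at day 7. Of 10 cell cycle genes 9 were lower, with the proliferation marker Mki67 at 3.10 ± 0.599 CPM at 10 weeks and 37.4 ± 3.31 CPM at day 7 in WT (log2 fold change -3.62, SE 0.143, edgeR adjusted p = 1.15e-15).

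The ligands and the matrix partners of the precursor genes also changed with age, where 67.7% of all genes passed in WT. Of 5 genes of platelet-derived growth factors and their other receptor, 1 was higher and 4 were lower. Pdgfa, which encodes the ligand chain that acts on the Pdgfra receptor, had 27.3 ± 1.83 CPM at 10 weeks and 34.1 ± 1.33 CPM at day 7 in WT, a log2 change of -0.32 (SE 0.0569, edgeR adjusted p = 2.65e-05), while Pdgfd was higher (0.95, SE 0.171). Of 6 genes of the hyaluronan matrix, with which versican and tenascin-R assemble, 5 were lower and 1 was higher. Tnc, which encodes the related tenascin-C, fell by 4.44 and Ncan, the neurocan gene, by 1.96 on the log2 scale, and Hapln4, a link protein gene of the adult matrix, was higher by 5.88 (SE 0.205).

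Pdgfra and Cspg4 are also expressed outside the lineage, Pdgfra by fibroblasts of the meninges and Cspg4 by pericytes. Of 7 markers of meningeal fibroblasts 4 were lower at 10 weeks in WT and 0 were higher, with a summed level of 62.5 to 144 CPM at 10 weeks, against 145 to 376 CPM at day 7. Of 7 pericyte markers 4 were lower and 0 higher, with a summed level of 145 to 186 CPM at 10 weeks, against 188 to 238 CPM at day 7. None of these markers was at 0 in either age. The collagen gene Col3a1 fell by 3.15 on the log2 scale (SE 0.271) and the channel subunit gene Abcc9 by 1.18 (SE 0.143). Microglial markers were higher in 6 of 7, and neuronal markers were higher in 6 of 7 and lower in 1. Of all genes 33.3% were higher and 34.4% lower in the same comparison. The part of these cell types in the changes of Pdgfra and Cspg4 was not tested.

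The genotype comparisons asked whether the early lineage genes differed between mutant and WT cortex of the same age. G34R had mice at both ages, and at neither did any of the 9 genes pass. At 10 weeks 5.61% of all genes passed (edgeR; 0 of the 9 at an unadjusted p under 0.05, 0 by DESeq2 and 0 by limma-voom). The log2 fold changes lay between -0.24 for Bcas1 (95% interval -0.64 to 0.17) and 0.06 for Olig2 (-0.15 to 0.27), and all ranges overlapped, while 12.2% of all genes had ranges that did not. Pdgfra had 66.3, 58.7 and 62.7 CPM in G34R, against 62.7, 66.0 and 75.3 CPM (lowest, median and highest) in WT, with an interval of -0.23 to 0.04. Compared with the WT libraries of the low set alone, the log2 fold changes lay between -0.25 for Enpp6 and 0.13 for Cspg4. At day 7, where 0.308% of all genes passed, the log2 fold changes lay between -0.10 for Olig1 (-0.38 to 0.18) and 0.13 for Vcan (-0.01 to 0.27), again with 0 of the 9 at an unadjusted p under 0.05, 0 by DESeq2 and 0 by limma-voom. Vcan had 184, 163, 165 and 169.6 CPM in G34R, against 158, 184, 137 and 150.2 CPM in WT at that age.

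Few related genes of the lineage passed the threshold in G34R at 10 weeks. Of 18 other precursor genes 1 was lower, Emid1, with 1.76 ± 0.267 CPM in G34R (SD, n = 3) and 3.47 ± 0.575 CPM in WT (n = 6), a log2 change of -0.96 (SE 0.206, edgeR adjusted p = 0.00788). The log2 changes of 16 other genes of newly formed oligodendrocytes lay between -0.42 and 0.20. Of 20 myelin genes 2 were lower, Gal3st1, which encodes the enzyme that makes sulphatide (-0.51, SE 0.125, edgeR adjusted p = 0.0204), and the tetraspanin gene Tspan2 (-0.39, SE 0.103, edgeR adjusted p = 0.0348). Of the 20 myelin genes 19 had a negative log2 fold change (median -0.27, against -0.07 for the 9 early genes). Their summed level was 3970 to 5083 CPM in G34R, against 5125 to 6681 CPM in WT. The link protein gene Hapln4 was lower by -0.70 (SE 0.175, edgeR adjusted p = 0.0365). Beside these, 6 of 7 microglial markers were higher, with a summed level of 539 to 603 CPM in G34R, against 329.7 to 365 CPM in WT, and their part in these differences was not tested.

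In G34V at 10 weeks 2 of the 9 genes were lower and 0 higher, where 4.25% of all genes passed in either direction and 2.68% were lower. They were Olig1 and Enpp6. Olig1 had 37.1, 39.2 and 42.9 CPM in G34V, against 48.5, 50.9 and 60.4 CPM (lowest, median and highest) in WT. Every G34V animal was below every WT animal, with a log2 change of -0.39 (SE 0.0734, 95% interval -0.55 to -0.24, edgeR adjusted p = 0.00371). Enpp6 had 4.69, 5.17 and 6.15 CPM in G34V, against 7.08, 8.45 and 11.5 CPM in WT. It too did not overlap, with a log2 change of -0.68 (SE 0.149, 95% interval -1.0 to -0.37, edgeR adjusted p = 0.0118). These are low counts for Enpp6, 181 to 288 reads per G34V animal and 249 to 758 per WT animal.

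Neither call held under every grouping of the libraries. Against the WT libraries of the high set alone Olig1 differed by -0.33 (edgeR adjusted p = 0.0351) and Enpp6 by -0.58 (edgeR adjusted p = 0.0339). When animals with nearby numbers in their titles were taken as blocks, neither passed (-0.33 and -0.54, edgeR adjusted p = 0.0632 and 0.147). With the library set as a block Olig1 passed (-0.33, edgeR adjusted p = 0.0150) and Enpp6 did not (-0.58, edgeR adjusted p = 0.0734). That block was fitted on libraries, so both libraries of WT replicate 3 entered as separate samples of the same animal, and its p-values are not per animal. Olig1 passed without any 1 of the animals in turn (edgeR adjusted p from 0.00393 to 0.0428), and Enpp6 did not pass without G34V replicate 1 or 2 (-0.60 and -0.66, edgeR adjusted p = 0.0861 and 0.0687).

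The partner of Olig1 on chromosome 16, Olig2, lies 41.1 kb away from it on the same strand. Olig2 had 9.31, 10.14 and 9.46 CPM in G34V, against 10.15, 12.01 and 15.02 CPM in WT, so that every G34V animal was below the WT range, the highest of them barely. Its log2 change of -0.33 (SE 0.103, 95% interval -0.55 to -0.12) did not pass with an edgeR adjusted p of 0.0855. For Gpr17 the values were 33.1, 39.0 and 35.2 CPM in G34V, against 37.4, 46.0 and 49.6 CPM in WT, and 1 G34V animal lay inside the WT range. Its log2 fold change was -0.32 (SE 0.0911, edgeR adjusted p = 0.0601). DESeq2 called Olig2 and Gpr17 as well (adjusted p = 0.0358 and 0.0218), so that 4 of the 9 genes passed there. It also called more of all genes, 1328 against 905 by edgeR. Gpr17 was called by edgeR without a filter on low counts too (adjusted p = 0.0489). Without WT replicate 6 Olig2 passed (edgeR adjusted p = 0.0387), and without WT replicate 3 Gpr17 did (edgeR adjusted p = 0.0158). Groups that do not overlap, with the mutant lower, were found for 3 of the 9 genes (Olig1, Olig2 and Enpp6), against 5.90% of all genes.

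The precursor genes were close to WT in G34V. Pdgfra had 63.0, 58.4 and 66.5 CPM in G34V, against 62.7, 66.0 and 75.3 CPM in WT, with a 95% interval of the log2 change of -0.23 to 0.04. Cspg4 differed by 0.03 (-0.15 to 0.20), Vcan by -0.12 (-0.36 to 0.11) and Tnr by -0.10 (-0.29 to 0.09). Bcas1 differed by -0.23 (-0.64 to 0.18). None of these 5 passed or could be told from 0 in these animals. Differences inside each interval are not excluded, for Bcas1 as low as -0.64.

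Other genes of the lineage were lower in G34V mainly in the myelin list. Of 20 myelin genes 8 were lower and 0 higher (median log2 fold change -0.55, against -0.23 for the 9 early genes and 0.01 for all genes). Gal3st1 was lower by -0.80 (SE 0.128) and Fa2h, a fatty acid hydroxylase gene of myelin lipids, by -0.66 (SE 0.127). The summed level of the list was 3233 to 4270 CPM in G34V, against 5125 to 6681 CPM in WT. Of 16 other genes of newly formed oligodendrocytes 2 were lower, the homeobox gene Nkx6-2 (7.87 ± 0.297 CPM in G34V and 11.2 ± 1.19 CPM in WT, log2 fold change -0.51, edgeR adjusted p = 0.0317) and the kinesin gene Kif19a (-0.51, edgeR adjusted p = 0.0429). Of 18 other precursor genes 1 was lower, the transcription factor gene Sox8 (-0.33, edgeR adjusted p = 0.0239). Of 6 hyaluronan matrix genes Hapln4 (-1.28) and Bcan, the brevican gene (-0.22), were lower. Microglial markers were higher in 4 of 7, with a summed level of 395 to 494 CPM in G34V, against 329.7 to 365 CPM in WT, while the 7 pericyte markers summed to 144 to 179.6 CPM in G34V, against 145 to 186 CPM in WT. The part of these cell types in the lower Olig1 and Enpp6 was not tested.

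**Figure D3:**
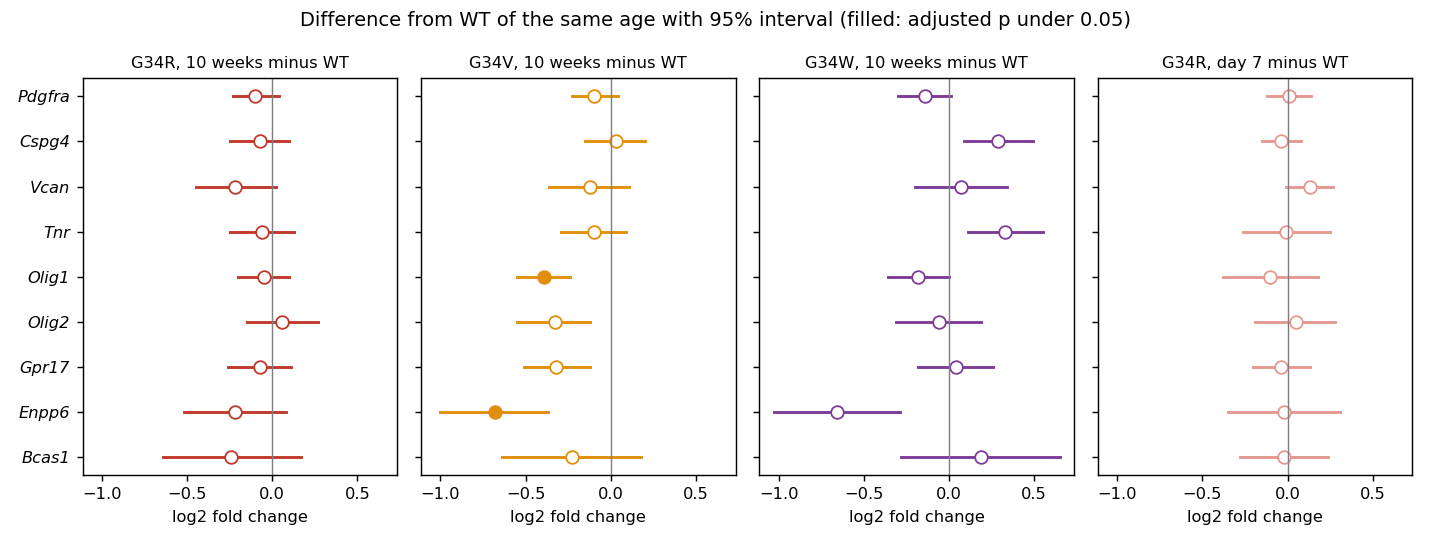
Log2 fold change from WT of the same age (x axis) with its 95% interval for each gene (y axis), for G34R, G34V and G34W at 10 weeks and G34R at day 7; filled points passed an edgeR adjusted p of 0.05. The filled points are Olig1 (-0.39) and Enpp6 (-0.68) in G34V.

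G34W had only 2 animals, and none of the 9 genes passed there by edgeR, where 1.61% of all genes did. At an unadjusted edgeR p under 0.05 there were 4 of the 9, with no share of all genes taken at that threshold. DESeq2 called 1 of the 9 and 916 of all genes, against 343 of all genes by edgeR. By limma-voom 0 of the 9 passed. Enpp6 had 4.83 and 5.99 CPM in G34W, against 7.08, 8.45 and 11.5 CPM (lowest, median and highest) in WT. Both animals were below the WT range, with a log2 change of -0.66 (SE 0.176, 95% interval -1.03 to -0.29, edgeR adjusted p = 0.0692). DESeq2 called it (adjusted p = 0.0131), and so did edgeR without a filter on low counts (adjusted p = 0.0497). Against the WT libraries of the high set alone it differed by -0.56 (edgeR adjusted p = 0.156).

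Cspg4 and Tnr were above the WT range in both G34W animals, and Pdgfra was below it. Cspg4 had 24.2 and 25.7 CPM in G34W, against 17.4, 21.2 and 22.5 CPM in WT, a log2 change of 0.29 (edgeR adjusted p = 0.134). Tnr had 95.3 and 129 CPM in G34W, against 77.7, 91.7 and 93.6 CPM in WT, a log2 change of 0.33 (edgeR adjusted p = 0.117). It passed without G34W replicate 1 (0.53, edgeR adjusted p = 0.0426) and came to 0.09 without replicate 2. Pdgfra had 59.4 and 62.0 CPM in G34W, against 62.7, 66.0 and 75.3 CPM in WT (-0.14, edgeR adjusted p = 0.337). Against the WT libraries of the high set alone, Cspg4 differed by 0.20, Tnr by 0.26 and Pdgfra by -0.19 (edgeR adjusted p = 0.344, 0.387 and 0.359). Groups that do not overlap were thus found for 4 of the 9 genes, against 16.4% of all genes in this comparison.

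The 2 G34W animals differed from each other most in Bcas1, with 169 CPM in replicate 1 and 83.6 CPM in replicate 2, against 93.2 to 124 CPM in WT. Its log2 fold change was 0.19 (95% interval -0.28 to 0.65) with both animals, 0.60 without replicate 2 and -0.41 without replicate 1. The summed level of the 20 myelin genes was likewise 5211 CPM in replicate 1 and 3512 CPM in replicate 2. Replicate 1 was labelled male and replicate 2 female, so animal and sex cannot be told apart here.

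Among related genes in G34W, 1 of 18 other precursor genes was higher and 2 were lower. Luzp2 had 89.1 ± 20.6 CPM in G34W (SD, n = 2) and 64.3 ± 5.16 CPM in WT (n = 6), a log2 change of 0.47 (SE 0.0994, edgeR adjusted p = 0.0267). Sox8 was lower, with 28.0 ± 0.0999 CPM in G34W and 40.3 ± 3.85 CPM in WT (-0.53, SE 0.0941, edgeR adjusted p = 0.00969), as was Rlbp1, which encodes a retinaldehyde-binding protein (-0.51, edgeR adjusted p = 0.0496). Of 16 other genes of newly formed oligodendrocytes Kif19a was lower (-0.74, edgeR adjusted p = 0.0327), and of 20 myelin genes 4 were lower. Of the hyaluronan matrix genes Hapln4 was lower by -1.15 (SE 0.213, edgeR adjusted p = 0.0235). The comparisons of the 3 substitutions with WT share the same 6 WT animals.

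**Figure D4:**
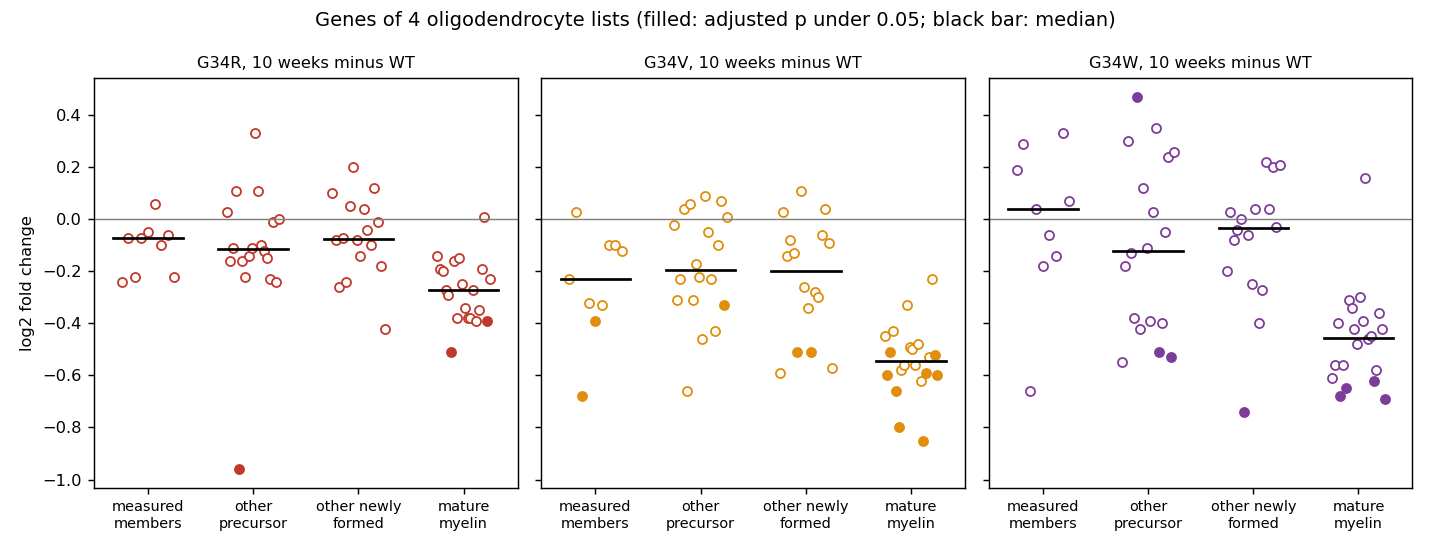
Log2 fold change from WT at 10 weeks (y axis) of every gene of 4 lists (x axis), for G34R, G34V and G34W; filled points passed an edgeR adjusted p of 0.05 and black bars are list medians. The myelin list has medians of -0.27, -0.55 and -0.46, and the 9 early genes of -0.07, -0.23 and 0.04.

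The substitutions were also compared with each other. None of the 9 genes passed between G34R and G34V, between G34R and G34W or between G34V and G34W (edgeR, where 0.230%, 1.88% and 0.150% of all genes passed). At an unadjusted edgeR p under 0.05 there were 4, 3 and 4 of the 9, with no share of all genes taken at that threshold. DESeq2 called 1, 2 and 1 of the 9, and 281, 1118 and 309 of all genes, against 49, 400 and 32 by edgeR. By limma-voom 1, 0 and 0 of the 9 passed. Olig1 had 51.4, 50.4 and 49.9 CPM in G34R, against 37.1, 39.2 and 42.9 CPM in G34V, a log2 change of 0.35 (95% interval 0.17 to 0.52, edgeR adjusted p = 0.116). Olig2 differed by 0.39 (0.15 to 0.64, edgeR adjusted p = 0.212) and Enpp6 by 0.46 (0.11 to 0.82, edgeR adjusted p = 0.318), all without overlap between the groups, which 9.24% of all genes showed with G34R higher. DESeq2 and limma-voom both called Olig1 (adjusted p = 0.0169 and 0.0301). G34R lies in the low library set and G34V and G34W in the high set, and only WT has libraries in both. With the library set as a block, the differences between G34R and G34V were 0.22 for Olig1, 0.35 for Olig2 and 0.32 for Enpp6 (edgeR adjusted p = 0.670, 0.692 and 0.818). Both libraries of WT replicate 3 again entered that fit as separate samples. Between G34R and G34W, Cspg4 differed by -0.36, Tnr by -0.39 and Enpp6 by 0.44 (edgeR adjusted p = 0.0892, 0.0923 and 0.239). DESeq2 called Cspg4 and Tnr (adjusted p = 0.0431 and 0.0372). With the library set as a block these 3 differences came to -0.08, -0.23 and 0.29. Between G34V and G34W, both in the high set, Tnr differed by -0.43 (95% interval -0.68 to -0.19, edgeR adjusted p = 0.153) and Bcas1 by -0.42 (edgeR adjusted p = 0.516). Both values turned on which G34W animal was kept. Tnr passed without G34W replicate 1 (-0.64, edgeR adjusted p = 0.0332) and by DESeq2 (adjusted p = 0.0359), and came to -0.19 without replicate 2. Bcas1 passed without G34W replicate 2 (-0.83, edgeR adjusted p = 0.0312) and came to 0.17 without replicate 1.

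For each of the 9 genes the gene with the most similar profile over the 6 groups was found among 12874 genes with at least 5 CPM on average, by the root mean square difference of centred mean log2 CPM. For Pdgfra it was Kif3b (0.028), with 78.0, 82.3, 78.0 and 86.0 CPM in G34R, G34V, G34W and WT at 10 weeks and 179.6 and 186 CPM in G34R and WT at day 7. For Bcas1 it was Ramp1 (0.032), for Olig2 Gm14964 (0.031), for Cspg4 Fam102b (0.036) and for Tnr Ears2 (0.036). Gpr17 was nearest to Lhpp (0.053), Olig1 to Eci2 (0.056) and Enpp6 to Apold1 (0.082), which had 5.78, 4.18, 3.86 and 7.82 CPM in G34R, G34V, G34W and WT at 10 weeks. Vcan had the least close neighbour by this unscaled distance, Tes, at 0.108. The profiles differed in size, with a root mean square of 1.51 for Vcan, 0.234 for Enpp6, 0.194 for Olig1 and 0.136 for Tnr. The likeness is over 6 group means and describes these samples.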

How the data were processed

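The authors deposited raw counts per gene for 23 cortex libraries of 22 mice, with genotype, age and sex from the labels. The tools named in the submitters' processing notes are featureCounts 1.4.4, bedtools 2.27.1, STAR 2.3.0e and Trimmomatic 0.32, with mm10. The annotation release was not given in the sources used here, nor was the strand setting. Exonic bases shared with genes on the other strand (188 in Gpr17, 157 in Olig1, 474 in Bcas1, 443 in Tnr) could thus change the counts. In Pdgfra 652 exonic bases were shared, with genes on the other strand and with a microRNA gene on its own. Gene positions and lengths came from GENCODE M21 (GRCm38). The members and gene lists were chosen with earlier results of these data known.

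Both libraries of WT replicate 3 at 10 weeks were summed, and Y-linked genes, Xist and Tsix were left out of the tests. Tests used edgeR 4.0.16 in R 4.3.3 (quasi-likelihood, robust, TMM, filterByExpr, Benjamini-Hochberg, threshold 0.05) in a fit of 14 animals at 10 weeks (21274 genes), of 8 at day 7 with sex as a covariate (20451 genes) and of all 22 for age and for the difference between ages (22417 genes). The SE is the log2 fold change over the root of F. The script was tested on simulated data. Alternatives were RLE scaling, no filter, DESeq2 1.42.0, limma-voom (limma 3.58.1), only the compared groups and the summed libraries kept separate. Others were blocks of nearby animal numbers, sex terms, males alone and each animal left out. Chosen after seeing the data were 2 library sets at 10 weeks, split at the widest gap in the share of mitochondrial protein-coding counts (0.885% to 1.028% and 1.116% to 1.356%), as a block or with the mutant's set alone. WT replicate 3 had 1 library in each set, and with the set as a block these were fitted as separate samples of 1 animal. The named genes were the members, up to 3 genes per list and comparison with the smallest adjusted p, and the nearest profile of each member.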

Additional observations from a re-analysis of the deposited data

Results flagged for a closer look

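A sample stood far from the rest of its group in 4 of 27 sets of gene and group, a check that chance sets off in about 1 in 20. Groups with fewer than 4 animals were not checked, which leaves out G34R, G34V and G34W at 10 weeks. WT replicate 1 at 10 weeks was high for Olig1, with 60.4 CPM against 48.5 to 52.5 CPM in the other WT animals, and for Enpp6, with 11.5 CPM against 7.08 to 8.70 CPM. Without that animal the G34V differences were -0.35 for Olig1 (edgeR adjusted p = 0.00612) and -0.58 for Enpp6 (edgeR adjusted p = 0.0133). WT replicate 4 at 10 weeks was low for Tnr, with 77.7 CPM against 87.7 to 93.6 CPM. G34R replicate 1 at day 7 was low for Enpp6, with 5.19 CPM against 6.73 to 6.81 CPM in the other G34R animals of that age.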

How the results depend on the processing

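The 6 genes that changed with age in G34R, and 6 of the 8 in WT, passed under every alternative run, and the exceptions in WT (Olig1 and Enpp6) are given in the text. Of the 9 genes, 2 passed between G34V and WT, against 4 by DESeq2, 3 with no filter and 0 with blocks of animal numbers. The count was 1 with the library set as a block and 1 to 3 with an animal left out. Over all genes 905 passed there, against 1328 by DESeq2, 341 with blocks of animal numbers and 685 with the library set as a block. Between G34W and WT 0 passed, against 1 with no filter, 1 by DESeq2 and 0 to 1 with an animal left out. Between G34R and G34V 0 passed, against 1 by DESeq2, by limma-voom and with only those groups. Between G34R and G34W 0 passed, against 2 by DESeq2, 1 with sex as a covariate and 0 to 1 with an animal left out. Between G34V and G34W 0 passed, against 1 by DESeq2, 1 with sex as a covariate and 0 to 1 with an animal left out. The cause was not tested. With sex as a covariate, G34W rests on replicate 1 alone.

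Sign changes occurred among log2 changes that had not passed. For G34R against WT at 10 weeks, blocks of animal numbers gave 0.01 for Cspg4, 0.07 for Tnr and -0.02 for Olig2, the library set as a block gave 0.12 for Cspg4, 0.03 for Tnr and 0.02 for Gpr17, and the low set alone gave 0.01 for Pdgfra, 0.13 for Cspg4, 0.04 for Tnr and 0.03 for Gpr17. For G34V against WT, Cspg4 was at -0.07 with the set as a block and in the high set alone. For G34W against WT, blocks of animal numbers gave -0.07 for Vcan, 0.08 for Olig2 and -0.03 for Gpr17, and sex as a covariate gave -0.02 for Vcan. For G34R against G34V, the set as a block gave 0.18 for Cspg4, 0.14 for Vcan and 0.17 for Bcas1, and blocks of animal numbers gave 0.05 for Bcas1. Blocks of animal numbers also gave -0.02 for Olig1 and -0.10 for Olig2 between G34R and G34W, and 0.03 for Vcan between G34V and G34W, where sex as a covariate gave 0.15 for Enpp6. At day 7, limma-voom gave 0.07 for Enpp6 and 0.03 for Bcas1. For the G34R effect at 10 weeks minus that at day 7, limma-voom gave -0.02 for Olig2 and males alone gave 0.01 for Gpr17.

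With an animal left out in turn, log2 changes of either sign were seen for these genes, given as lowest to highest. For G34R against WT at 10 weeks they were Olig1 -0.07 to 0.01, and for G34V against WT they were Cspg4 -0.02 to 0.06. For G34W against WT they were Vcan -0.03 to 0.15, Olig2 -0.10 to 0.01, Gpr17 -0.01 to 0.07 and Bcas1 -0.41 to 0.60, and for G34R against G34V they were Pdgfra -0.05 to 0.05, Vcan -0.20 to 0.07, Tnr -0.04 to 0.11 and Bcas1 -0.11 to 0.09. For G34R against G34W they were Bcas1 -0.84 to 0.16, and for G34V against G34W they were Enpp6 -0.17 to 0.16 and Bcas1 -0.83 to 0.17. For G34R against WT at day 7 they were Pdgfra -0.04 to 0.06, Tnr -0.11 to 0.09, Olig2 -0.03 to 0.17, Gpr17 -0.09 to 0.04, Enpp6 -0.12 to 0.12 and Bcas1 -0.11 to 0.08, and for the difference of the G34R effects they were Cspg4 -0.09 to 0.02, Tnr -0.10 to 0.09, Olig1 -0.02 to 0.15, Olig2 -0.08 to 0.09 and Gpr17 -0.14 to 0.03. For age in WT they were Tnr -0.09 to 0.03, and for age in G34R they were Tnr -0.11 to 0.07. The labels give no replicate numbers that the groups share, so matching rested on the blocks of animal numbers, which set each mutant beside WT animals of its own run.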

Other observations

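The 2 libraries of WT replicate 3 at 10 weeks, made from 1 animal, differed in several of the genes by more than some genotype differences. Cspg4 had 14.8 CPM in library 1 and 21.6 CPM in library 2, a log2 difference of -0.541, and Olig2 10.4 and 13.5 CPM (-0.374). Enpp6 differed by -0.353, Bcas1 by -0.367, Vcan by -0.315 and Pdgfra by -0.204, all lower in library 1, while Olig1 had 50.4 and 49.2 CPM (0.035).

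Within 250 kb on either side of Olig1 and Olig2, 10 other genes were tested in G34V, and their log2 fold changes lay between -0.63 and 0.36. The 1 that passed was H3f3a-ps2, a processed pseudogene of the edited gene, with a log2 change of 0.36 (SE 0.0827, edgeR adjusted p = 0.0168). It was named after its values were seen, and its reads may be shared with H3f3a.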
